A study of Homo sapiens with 2 samples.

Results

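KANK proteins are adaptors of focal adhesions, the contacts that tie a cell to its matrix. The family has 4 genes in the human genome, KANK1, KANK2, KANK3 and KANK4, and their signals were examined in A549 cells, a human lung carcinoma line, with and without transforming growth factor-β (TGF-β). The members are all probe sets that the platform annotation assigns to these genes, under their present names or as ANKRD15, ANKRD25, ANKRD47 and ANKRD38. They comprised 8 of the 54613 probe sets that are not controls. KANK1 and KANK2 had 3 probe sets each, and KANK3 and KANK4 had 1 each. The family was chosen because of the difference between these same arrays, so all its values are a description and none was tested.

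The treated A549 cells had received TGF-β at 1 ng/ml and were taken after 12 h, and the control A549 cells had not received it. Total RNA of each was measured on 1 Affymetrix expression array. With 1 array per condition a difference has no replicate check and no p-value, and its precision is limited by the number of arrays. The values are MAS5 signals, linear intensities that the authors deposited for each probe set. The background was the highest signal among 27 probe sets for Bacillus subtilis transcripts, 56.6 on the TGF-β array and 45.8 on the control array. If 1 of the 2 signals of a probe set did not exceed the background of its array, that background took its place and the fold is a lower bound. If neither did, no fold is given. Calls of higher or lower were made at a fold of 2 or more, a size rule without a test. All 5 epithelial markers examined (KRT8, KRT18, KRT19, CDH1 and EPCAM) were above background on both arrays. None of the 4 fibroblast markers (PDGFRA, PDGFRB, DCN and LUM) was above background on both arrays. The endothelial markers CDH5, VWF, TEK and KDR and the leukocyte marker PTPRC were below it, while PECAM1 (65.4 with TGF-β and 56.4 in the control) and CD3E (74.8 with TGF-β and 48.8 in the control) were just above it.

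The name KANK stands for the KN motif and the ankyrin repeat domain that these proteins share. The KN motif near the amino terminus binds the rod of talin, the protein that couples integrins to actin. A coiled coil binds liprin-β1, and the ankyrin repeats near the carboxyl terminus bind the kinesin KIF21A. Through these contacts KANK proteins form a belt around focal adhesions and gather the cortical microtubule stabilizing complex there, which holds microtubule ends at the cell edge beside the adhesion. KANK1 is also known to restrain RhoA and stress fibres, and KANK2 to bind steroid receptor coactivators in the cytoplasm. In mouse tissues KANK1 is found mainly in epithelia, KANK2 in mesenchymal cells and KANK3 in endothelium. KANK4 is known from podocytes of the kidney, where variants of KANK1, KANK2 and KANK4 have been linked to nephrotic syndrome.

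The upstream sequence of KANK4, the gene called higher in the family, is shown because TGF-β can act on transcription through Smad proteins. Whether Smad proteins act on KANK4 was not tested. It is the 250 bases directly before the annotated gene, read 5′ to 3′ on the strand of the gene, from the RefSeq annotation of GRCh38.p14. Capitals mark every AGAC or its reverse complement GTCT, the 4 bases at the core of the Smad binding element.
KANK4, chr1:62319435-62319684, minus strand: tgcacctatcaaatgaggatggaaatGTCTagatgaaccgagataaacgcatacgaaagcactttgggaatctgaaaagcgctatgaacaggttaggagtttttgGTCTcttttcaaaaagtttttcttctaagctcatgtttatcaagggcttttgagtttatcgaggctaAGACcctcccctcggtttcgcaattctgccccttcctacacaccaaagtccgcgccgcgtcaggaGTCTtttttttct

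The KANK4 window held AGAC or GTCT 4 times, with the first base at positions -224, -145, -78 and -13 from the start. Of 35116 promoters of this annotation cut to the same length, 77.5% held at least 1 such core, the median was 1, and 7.75% held 4 or more. The KANK2 window held 2 such cores, the KANK3 window 1, and the windows of the 4 KANK1 start sites 0, 1, 1 and 1. This core was chosen after the KANK4 sequence had been seen. G and C made up 43.6% of the KANK4 window, against a median of 58% over all promoters. The longer Smad box CAGACA, sought on both strands, was not in the window, and it was present in 13.6% of all promoters. Every CAGACA also contains AGAC. The AP-1 motifs TGACTCA and TGAGTCA (present in 4.20% of promoters), the TEAD motif GGAATG (11.9%) and the CArG box bound by serum response factor (1.16%) were not in it either. A match is a stretch of letters and not a measured binding site, and its absence covers these 250 bases alone.

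KANK4 was far higher with TGF-β. Its single probe set, 229125_at, read 1249 on the TGF-β array and 15.0 on the control array. The TGF-β signal was 22.1 times the background of its array, whereas the control signal lay under the background. With this background, the KANK4 signal was thus at least 27.3-fold higher with TGF-β, with a log2 fold change of at least 4.77. The bound depends on the background chosen: with 1 background level for both arrays it was 22.1-fold. It also leaves out the error of the TGF-β signal, which 1 array cannot give. In bulk RNA, a rise in every cell and a rise in some of the cells cannot be told apart. The ratio of the signals as deposited was 83.1, which has no precision of its own because its denominator is a background reading. The spread of log2 fold changes over the 500 kept probe sets closest in mean signal was 0.28, which describes probe sets on these 2 arrays and not cultures.

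Of the 12308 genes for which a fold could be given, KANK4 had the highest rise, counted by its lower bound. In 14 alternative treatments of the signals it ranked between 1 and 4. KANK4 is not on the study's own list of genes that TGF-β changed strongly on these arrays. That list has a higher fold cut than the 2-fold rule used here, and the KANK4 bound exceeds it. The reason for the absence is not given. The KANK4 change rests on 1 probe set, so no second probe set of the gene could be set beside it. Its name does not carry the endings that mark probe sets with shared targets.

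The KANK4 pattern was compared with those of all other kept genes by the distance between their log2 signals on the 2 arrays, with signals under background raised to it. The nearest genes were ADAM19, PPP1R14C and MYOCD, at distances of 0.39, 0.55 and 0.61 log2 units. ADAM19, a membrane-anchored metalloprotease that the study singled out on these arrays, read 971 with TGF-β and 50.1 in the control, just above background. Its other probe set was under background on both arrays. PPP1R14C, an inhibitor of protein phosphatase 1, read 853 with TGF-β and 4.99 in the control, which is under background. It has 1 probe set, and its fold of at least 18.6 is a lower bound. As deposited, its log2 ratio was 7.42, beside 6.38 for KANK4, and both have a background reading as denominator. MYOCD, the smooth muscle coactivator myocardin, read 922 with TGF-β and 61.2 in the control, which is 15.1-fold higher. Its other kept probe set read 468 with TGF-β and 75.3 in the control, which is 6.22-fold higher. Neither PPP1R14C nor MYOCD is on the study's list of strongly changed genes. Likeness over 2 arrays means only that these genes were dim in control cells and bright with TGF-β.

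KANK2 stayed under the 2-fold rule. Its bright probe set, 218418_s_at, read 1760 with TGF-β and 1068 in the control, so the TGF-β signal was 1.65 times the control signal, a log2 difference of 0.72. The spread over probe sets of like brightness was 0.28, so the difference was 2.56 such spreads. This spread is taken over probe sets on the same 2 arrays and holds no variation between cultures. Of the 12308 genes, 792 had a larger rise, and KANK2 lay at the upper 6.44%. The ending of this probe set marks it as able to bind more than 1 transcript. The other KANK2 probe sets gave no level above background on either array. Probe set 221068_at read 20.4 with TGF-β and 15.8 in the control, and 1569602_at read 6.11 with TGF-β and 3.79 in the control. A single probe set therefore carries the KANK2 value, as for KANK4.

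KANK1 was present on both arrays and differed little by its brighter probe sets. The brightest, 213005_s_at, read 446 with TGF-β and 505 in the control, a log2 fold change of -0.18, with a spread of 0.32 at this brightness. Probe set 238789_at read 353 with TGF-β and 321 in the control, a log2 fold change of 0.14, with a spread of 0.31. These probe sets thus pointed in opposite directions, each by less than the spread. The dimmest, 237162_at, read 81.9 with TGF-β and 24.8 in the control, where it was under background. This probe set was at least 1.79-fold higher with TGF-β, below the 2-fold rule, and its ratio as deposited was 3.30. Its log2 fold change was thus at least 0.84, with a spread of 0.74 at this brightness. The annotation lists 4 start sites for KANK1, and which transcripts each probe set detects is not given in the sources used here. The median of its probe sets gave KANK1 a log2 fold change of 0.14 and the probe set that changed most gave 0.84, so its direction depends on the probe set.

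KANK3 gave no level above background. Its only probe set, 213715_s_at, read 8.05 with TGF-β and 9.94 in the control, under the background of both arrays, and no fold is given. KANK3 could therefore not be measured in these cells with this probe set, and a low level cannot be told apart from a probe set that responds poorly.

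Over the family, 3 of the 8 probe sets were above background on both arrays, 2 were above it only on the TGF-β array (KANK4 and the dimmest of KANK1) and 3 on neither. The filter on low signals, a mean of both arrays of at least 48.7, kept 5 of the 8, and KANK4 and the dimmest KANK1 probe set passed it through the TGF-β array. Of the 4 genes, 1 was called higher and 0 were called lower. Among all 12375 kept genes, each represented by its brightest kept probe set, 3.38% were called higher and 1.65% lower. Of the 5 kept KANK probe sets, 1 was called higher, beside 3.15% higher and 1.5% lower among all kept probe sets with a single gene symbol. Since the family was chosen on this comparison, nothing is read from its counts.

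**Figure D1:**
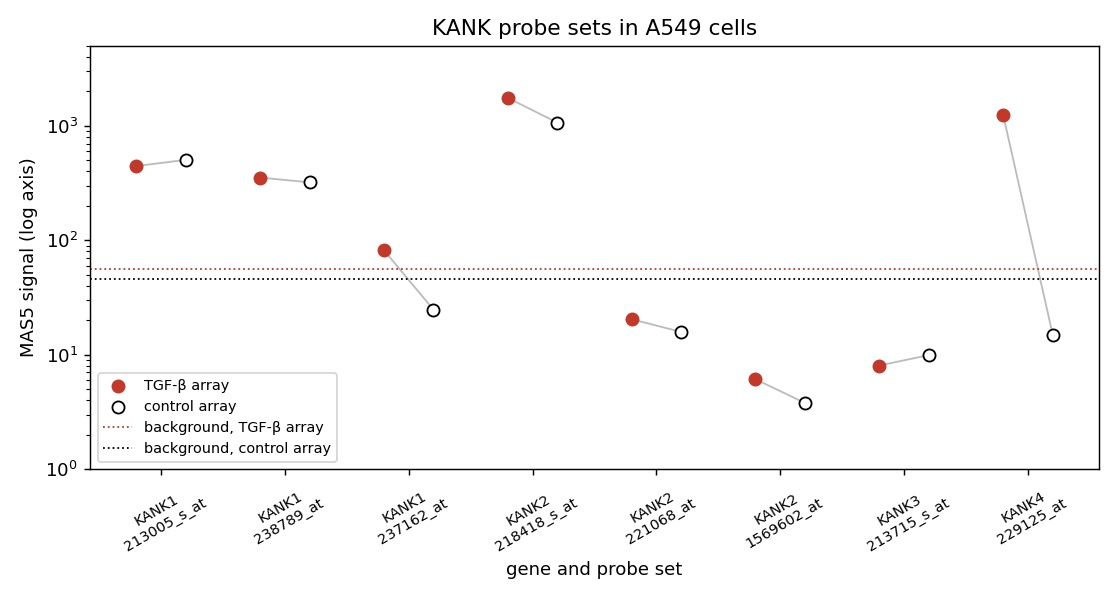
MAS5 signals (log axis) of the 8 KANK probe sets on the TGF-β array (red points, left of each pair) and the control array (open points, right of each pair). A point is 1 array, and the backgrounds are dotted lines, red at 56.6 for the TGF-β array and black at 45.8 for the control array. KANK4 read 1249 with TGF-β and 15.0 in the control, whereas the bright KANK1 and KANK2 probe sets stayed above both lines on both arrays.

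**Figure D2:**
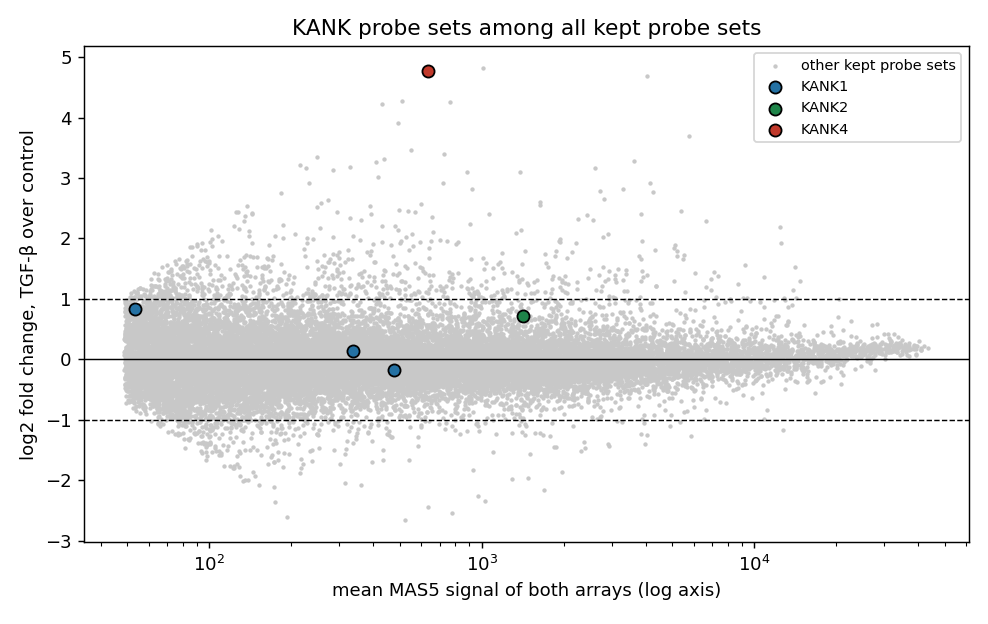
Log2 fold change, TGF-β over control, against the mean MAS5 signal of both arrays (log axis) for kept probe sets with a single gene symbol. Large points are KANK probe sets, grey points are other probe sets, and dashed lines mark 2-fold. KANK4 lies at 4.77, far above the upper line, KANK2 at 0.72 and the KANK1 probe sets between -0.18 and 0.84.

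The proteins that KANK proteins bind or work with were examined in 4 gene lists, 85 genes in all. Of these, 73 had a kept probe set, 6 had probe sets but none was kept, and 6 were not found by symbol in the annotation used here and were not analysed. The counts cover the 73 genes, and a list is described beside all kept genes without a test. Over all kept genes the median log2 fold change was -0.03.

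Of 19 measured direct partners of KANK proteins, 1 was higher (5.26%, beside 3.38% of all kept genes) and 0 were lower (beside 1.65%), and the median log2 fold change was 0.23. The higher one was DAAM1, a formin that builds actin filaments and binds KANK1. DAAM1 read 1076 with TGF-β and 249.8 in the control, which is 4.31-fold higher, and 2 of its 3 kept probe sets passed 2-fold. The study listed DAAM1 among genes it picked on these arrays, so its rise is not independent evidence.

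Talin 1 (TLN1), the talin found in nearly all tissues and the partner of the KN motif, read 309.8 with TGF-β and 206.6 in the control, a log2 fold change of 0.58, and its other kept probe set gave 0.20. TLN2, the second talin, was under background on both arrays in all of its 3 probe sets. KIF21A, the kinesin that binds the ankyrin repeats, read 4139 with TGF-β and 3284 in the control, a log2 fold change of 0.33. PPFIBP1, which encodes liprin-β1, read 939 with TGF-β and 911 in the control, a log2 fold change of 0.04, while its other kept probe sets lay between -0.40 and 0.33. All of these kept probe sets stayed within 2-fold.

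None of the 10 measured genes of the cortical microtubule stabilizing complex and its microtubule end proteins was called in either direction, beside 3.38% higher and 1.65% lower among all kept genes, so a count of 0 in 10 genes stands close to that background. Their median log2 fold change was 0.28. PPFIA1, which encodes liprin-α1, read 4109 with TGF-β and 2924 in the control, a log2 fold change of 0.49. PHLDB2, which encodes the membrane anchor LL5β, read 10697 with TGF-β and 7519 in the control, a log2 fold change of 0.51, and ERC1, which encodes the scaffold ELKS, had one of 0.21. All 3 genes had TGF-β signals above their control signals by less than 2-fold. MAPRE2, which encodes the microtubule end-binding protein EB2, had the largest change of the list. It read 388 with TGF-β and 656 in the control, a log2 fold change of -0.76, and its dimmer kept probe set passed the rule downward.

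In the core of talin and integrin adhesions, 6 of 28 measured genes were higher (21.4%, beside 3.38% of all kept genes), 1 was lower (3.57%, beside 1.65%) and 21 were neither. The median log2 fold change was 0.54. The list was chosen with earlier results of these data known, so its share is a description. Across the alternatives 5 to 8 genes were higher. FERMT1 was 1.90-fold higher by its brightest probe set, and 2.38-fold and 2.18-fold by its other kept probe sets. ACTN1 was 1.57-fold higher by its brightest probe set, and 1.98-fold and 2.74-fold by its other kept probe sets. Integrin subunits, the receptors of the adhesion, were among the higher genes. ITGA2, a subunit of a collagen receptor, read 3095 with TGF-β and 781 in the control, which is 3.96-fold higher, and its second probe set was 3.05-fold higher. ITGA5, of the fibronectin receptor, was 2.02-fold higher and ITGAV 2.03-fold, each just past the rule and short of it in some alternatives, and ITGB1, the β subunit that pairs with them, had a log2 fold change of 0.29. Among cytoplasmic adaptors, TGFB1I1, the paxillin relative Hic-5, read 1753 with TGF-β and 574 in the control, which is 3.05-fold higher. The tensins TNS1 and TNS4, which bind integrin tails, were 2.44-fold and 2.24-fold higher. SORBS3, which encodes the vinculin-binding protein vinexin, was 2.32-fold lower, reading 86.7 with TGF-β and 201 in the control, and fell short of 2-fold when 50 was added to every signal.

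Of 21 measured regulators of actomyosin, LIMK2, a kinase that inactivates cofilin, was called higher (4.76%, beside 3.38% of all kept genes) and 0 were called lower (beside 1.65%). It read 428 with TGF-β and 203 in the control, which is 2.11-fold higher, and both of its kept probe sets passed 2-fold, though its log2 fold change was 0.92 with 50 added to every signal. The median log2 fold change of the list was 0.19. ARHGDIA, an inhibitor of small GTPases that binds KANK2 in podocytes, had a log2 fold change of 0.40 by its brightest probe set, with a range from -0.74 to 0.40 over 4 probe sets.

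Markers of podocytes, in which KANK4 is known, were not at a common level. NPHS1, the slit diaphragm protein nephrin, was under background on both arrays, at 6.08 with TGF-β and 4.38 in the control. PODXL, a surface sialomucin that epithelial and endothelial cells also carry, read 1301 with TGF-β and 341 in the control, and WT1 read 87.7 with TGF-β and 122 in the control.

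**Figure D3:**
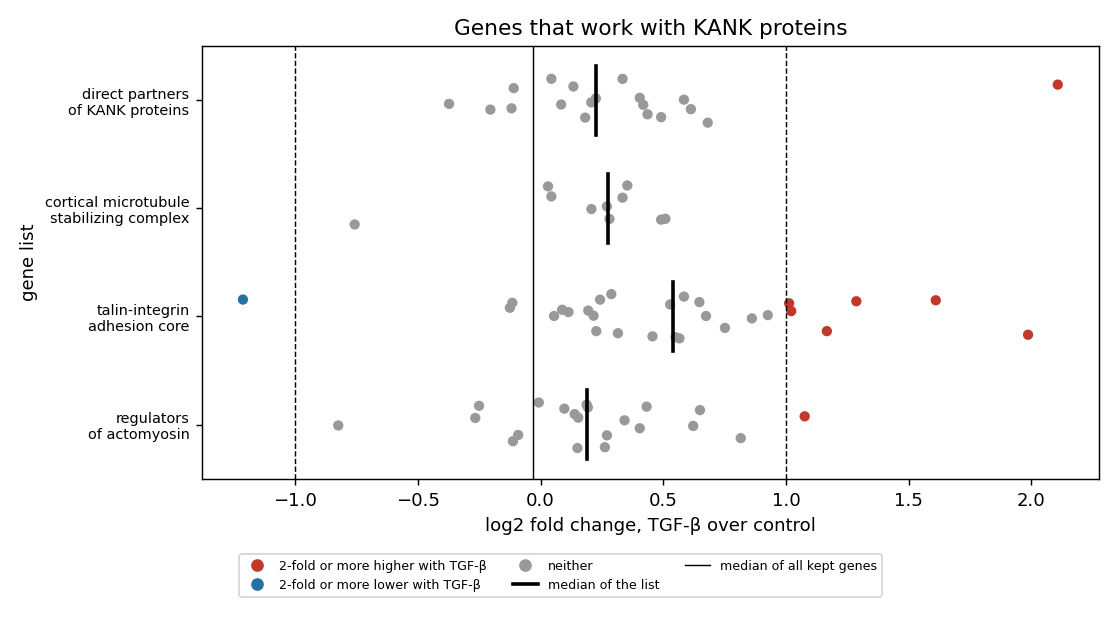
Log2 fold change, TGF-β over control, of each measured gene in 4 lists of genes that work with KANK proteins, 1 point per gene by its brightest kept probe set. Red points were at least 2-fold higher, the blue point (SORBS3) at least 2-fold lower, thick bars are list medians, the thin line is the median of all kept genes at -0.03, and dashed lines mark 2-fold. The list medians lie between 0.19 and 0.54, and DAAM1 is the highest point among direct partners.

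**Figure D4:**
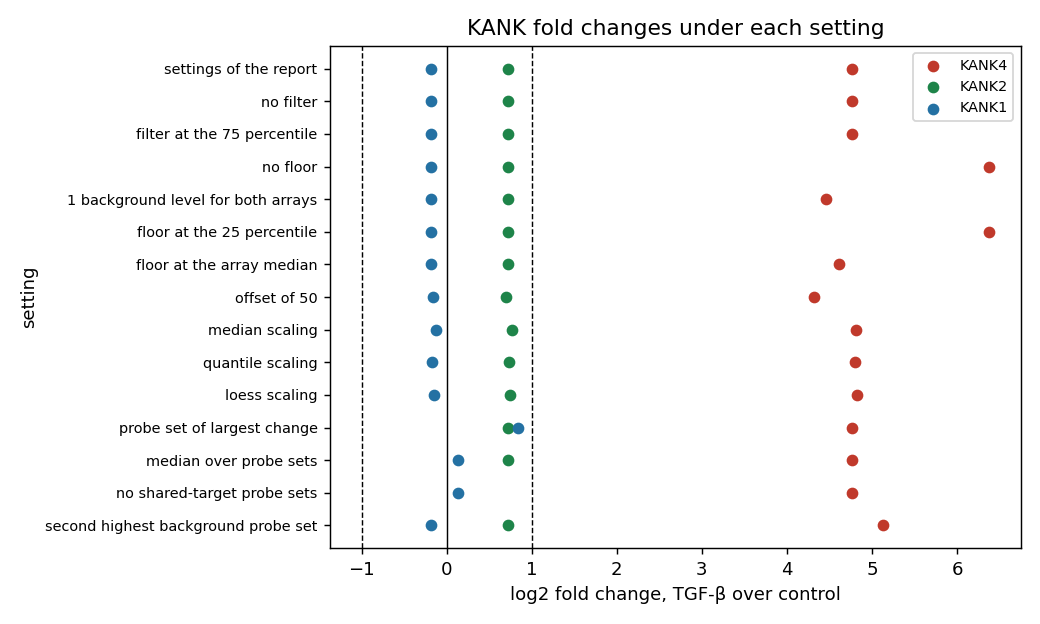
Log2 fold change, TGF-β over control, of KANK4 (red), KANK2 (green) and KANK1 (blue) under the settings of the report and 14 alternatives, with dashed lines at 2-fold. KANK4 lies between 4.32 and 6.38 and KANK2 between 0.70 and 0.77, while KANK1 changes side with the choice of probe set. No KANK2 value remains without shared-target probe sets.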

How the data were processed

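Total RNA of 1 TGF-β sample and 1 control sample was hybridized to 1 array each. The deposited values are MAS5 intensities per probe set. The MAS5 version is not given in the sources used here. The mean after trimming 2% at each end was 500.1 on both arrays, so the authors had scaled them, and no further scaling was applied. The median signal was 49.3 with TGF-β and 51.0 in the control.

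Of 54613 probe sets, 41091 carried 1 gene symbol, updated through RefSeq gene identifiers, 1801 several and 11721 none. A gene was represented by its brightest probe set with a mean signal of at least 48.7, the median. No test was made. The members and lists were chosen with earlier results of these data known. Named were every KANK probe set, list genes past 2-fold or the largest change where none passed, 7 partners whatever their change, and the 3 genes nearest to KANK4. FERMT1, ACTN1, ITGB1, ARHGDIA and the cell type markers were named after their values were seen. Alternatives covered the filter, floor, scaling and probe set. Calculations used Python 3.11.15 with numpy 2.4.6 and pandas 2.3.3, loess used statsmodels 0.14.6, and matplotlib 3.10.9 drew the plots.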

Additional observations from a re-analysis of the deposited data

How the results depend on the processing

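The alternatives say nothing of variation between cultures. The KANK4 log2 fold change of 4.77 was 6.38 without a floor and 4.32 with 50 added to every signal. Taking the second highest Bacillus subtilis signal as background, an alternative added after the data had been seen, gave 5.14. KANK4 was called higher in all 14 alternatives, and KANK2 in none of the 13 that gave a value. The filter and probe set alternatives could not change the KANK4 value, because the gene has 1 probe set. All alternatives use the same pair of signals on which the family was chosen, so this count is not support for the rise. The KANK1 log2 fold change (-0.18) turned to 0.14 by the median over probe sets and without shared-target probe sets, and to 0.84 by the probe set that changed most, since its probe sets differ. The 1 list gene called lower, SORBS3, became 0 with the offset and when the filter was set at the 75 percentile, and 2 list genes were lower by the probe set that changed most. PPFIBP1 (0.04) turned to -0.077 by the median over probe sets and to -0.40 by the one that changed most. ITGA5 (0.89), LIMK2 (0.92) and SORBS3 (-0.88) lost 2-fold with the offset, and ITGAV lost it with quantile (0.96) and loess (0.97) scaling. Signal over background limits KANK3 and the control level of KANK4. No paired analysis was possible because each condition had 1 array.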
